A study of Neurospora crassa with 8 samples.

Results

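The genes described here are 22 of the 9730 Neurospora crassa genes with counts, all held at a higher level in the ve-1 mutant than in wild type, whether or not the medium contained iron. They were chosen by their own group means. Raw counts were divided by median-of-ratios size factors, the 2 libraries of a group were averaged, and 1 was added. A gene was kept when both ve-1 means were at least 100 and under 3-fold apart, and when ve-1 was at least 4-fold over wild type in each medium. NCU00646 and NCU08457 were left out by name; of these, NCU00646 met the numbers and NCU08457 did not, with ve-1 means 3.6-fold apart and a fold of 3.1 in standard medium. The folds of ve-1 over wild type given below chose the genes, so they are a description and carry no test.

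Poly(A) RNA came from shaken liquid cultures of this filamentous ascomycete, harvested as mycelium after 48 hours at 32 degrees C in Vogel's minimal medium with 1.5% sucrose. Iron-free medium was the same without iron, made in glassware that had been treated with EDTA and acid. The 4 groups, with 2 cultures each, were ve-1 in standard medium, wild type in standard medium, ve-1 in iron-free medium and wild type in iron-free medium. The labels give the mutant's genotype as ve-1 and nothing on how the gene was altered; the names of the deposited files give each genotype 2 strain numbers, 1 per replicate number, used again in the other medium. Nothing states that the cultures were grown on separate days, so p-values measure the spread between these cultures, which may in part be technical. In bulk RNA, fewer cells of a type and less RNA per cell cannot be told apart.

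Velvet proteins are fungal regulators that join development to secondary metabolism. In Aspergillus nidulans the VE-1 counterpart VeA carries another velvet protein, VelB, into the nucleus, where the pair meets the methyltransferase-like protein LaeA; loss of VeA unbalances asexual and sexual development and lowers the output of several metabolite clusters. The series title names the Neurospora complex of VE-1, VE-2 and LAE-1, and the layout asks what changes when ve-1 is lost and whether iron alters that change.

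Depth ran from 6654585 to 10192729 counts per library, and size factors from 0.769 to 1.54. The ve-1 gene (NCU01731) itself checked the genotype labels, with 23.2 and 36.4 normalised counts in the ve-1 standard libraries against 1273 and 1901 in wild type, and 14.7 and 51.8 against 2254 and 1885 in iron-free medium. The mating-type transcript matA-1 (NCU01958) was not divided by group. It stood at 0 and 524 normalised counts in the ve-1 standard libraries, 139 and 0 in those of wild type, 0.981 and 3.24 in ve-1 iron-free and 56 and 0 in wild-type iron-free libraries. Wild type was high in replicate 1 and at 0 in replicate 2 in both media, whereas ve-1 replicate 2 was high in standard medium and low in iron-free medium. The part of matA-1 in any difference between replicates was not tested.

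The conditions of the rule left few genes. Of 5177 genes with both ve-1 means at 100 or more and under 3-fold apart, 68 reached 4-fold in standard medium and 94 in iron-free medium, and 23 reached it in both. The mirrored rule, with wild type at least 4-fold over ve-1, was met by 180 genes. The 22 genes took 0.210% (Wilson 95% interval 0.207 to 0.214) and 0.186% (0.183 to 0.189) of all counts in the ve-1 standard libraries, against 0.0413% (0.0399 to 0.0426) and 0.0131% (0.0124 to 0.0139) in wild type. In iron-free medium their share was 0.197% (0.194 to 0.200) and 0.234% (0.231 to 0.237) in ve-1, against 0.0231% (0.0221 to 0.0241) and 0.0289% (0.0277 to 0.0300) in wild type. Such intervals cover counting error only. Relative to their level, the shares of the 2 wild-type standard libraries lay further apart than those of any other group.

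In all 22 genes, both ve-1 libraries exceeded both wild-type libraries in each medium, which the rule on means favours. Over all 8118 genes tested, this held for 36.3% in standard and 30.0% in iron-free medium. The median fold was 5.74 in standard medium (4.12 to 150) and 6.16 in iron-free medium (4.08 to 726). Folds of at least 10 in both media were seen in 3 genes, and 13 genes stayed under 10-fold in both. In edgeR's quasi-likelihood test with Benjamini-Hochberg adjustment over 8118 genes, 17 of the 22 were called higher in ve-1 in standard medium, beside 12.5% of all genes. In iron-free medium 15 were called higher, beside 8.36% of all genes; since the rule used these contrasts, nothing is read from the counts. The authors' deposited tables listed all 22 as higher in ve-1 in both media, among 2197 genes in standard and 1548 in iron-free medium. Those tables rest on the same libraries that the rule used, so nothing is read from this listing either.

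**Figure D1:**
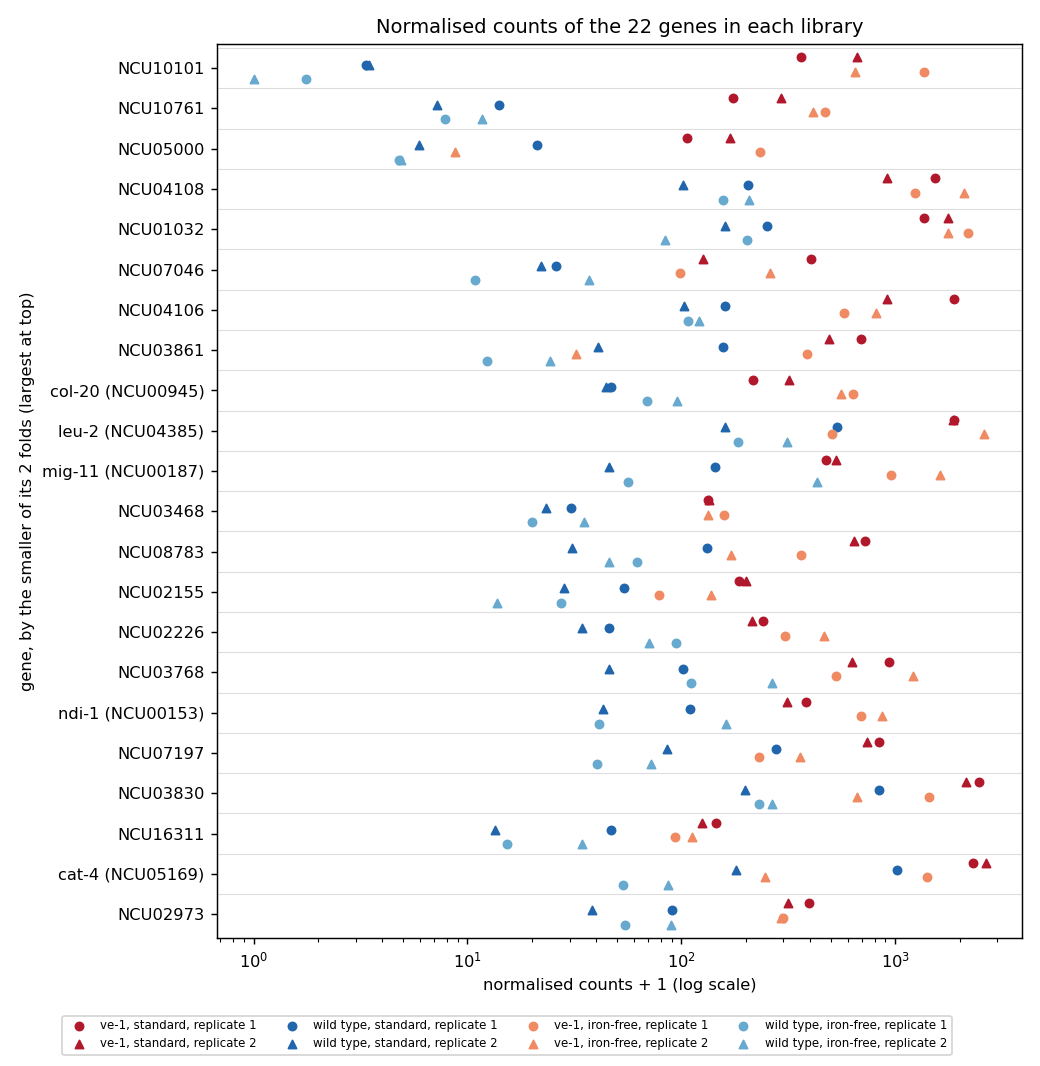
Normalised counts plus 1 (log scale, x axis) of each of the 22 genes (y axis) in the 8 libraries; circles are replicate 1 and triangles replicate 2, coloured by group. Both ve-1 libraries lie right of both wild-type libraries of the same medium in every gene, and NCU10101, at the top, has wild-type values close to 0.

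**Figure D2:**
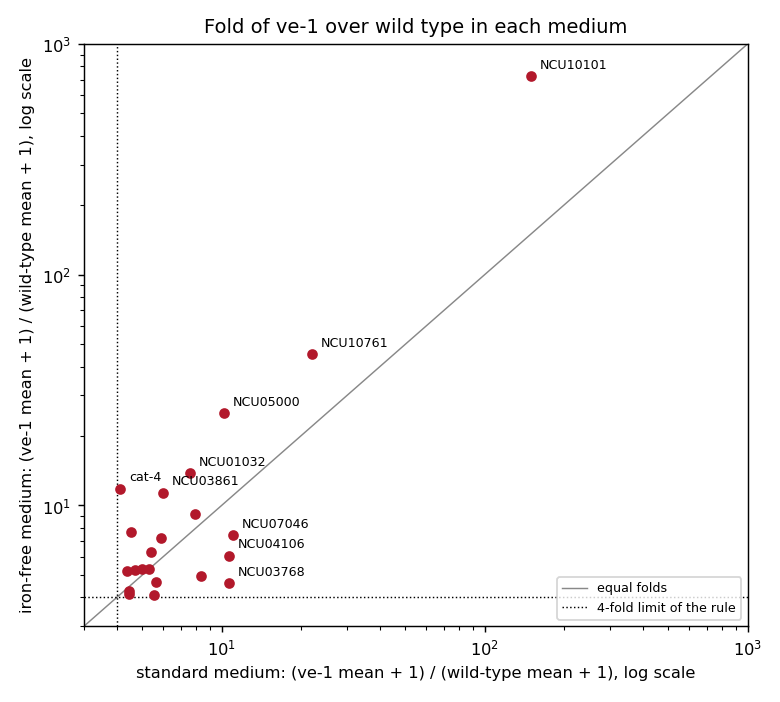
Each point is 1 of the 22 genes, with its fold of ve-1 over wild type in standard medium (x axis) and in iron-free medium (y axis), both on log scales and from group means plus 1; dotted lines mark the 4-fold limit and the grey line equal folds. NCU10101, NCU10761 and NCU05000 stand apart from the other genes, whose folds ran up to 13.8.

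Of the 22 genes, 5 carry a symbol in the RefSeq gene table, namely ndi-1, leu-2, cat-4, col-20 and mig-11. The gene ndi-1 (NCU00153) encodes the internal alternative NADH dehydrogenase, a single-protein route for electrons into the respiratory chain that bypasses complex I. It had 381 and 309.6 normalised counts in the ve-1 standard libraries, against 109 and 42.2 in wild type. In iron-free medium it had 689 and 867 in ve-1, against 40.1 and 160.1 in wild type. The 2 wild-type iron-free libraries differed more than those of ve-1, and the folds were 4.53 and 7.71 in standard and iron-free medium. Of the other alternative NADH dehydrogenase genes, a set picked after ndi-1 was seen among the members, nde-1, nde-2 and nde-3 had log2 fold changes of -0.29, 0.01 and -0.41 in standard medium, where none was called. In iron-free medium nde-2 rose (log2 fold change 1.48, SE 0.28, edgeR adjusted p = 0.015), while nde-1 and nde-3 were at 0.09 and 0.65.

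The leucine gene leu-2 (NCU04385) encodes isopropylmalate isomerase, an iron-sulfur enzyme of leucine synthesis. Its level was 1883 and 1856 normalised counts in ve-1 standard libraries and 532 and 159 in wild-type ones. Without iron it was 504 and 2595 in ve-1, against 182 and 311 in wild type. The iron-free ve-1 libraries thus lay over 5-fold apart, and the lower of them was 1.62-fold above the higher wild-type library. The annotated span of leu-2 overlaps that of NCU04386, whose means were 120.1 in ve-1 and 82.6 in wild type in standard medium, and without a stated strand setting their reads cannot be told apart. The other genes with a leu symbol, again picked afterwards, were leu-1, leu-4, leu-5 and leu-6. A leu symbol alone does not make the product an enzyme of leucine synthesis. None of these genes was called in standard medium (log2 fold changes -0.34 to 0.87). In iron-free medium leu-4, the isopropylmalate synthase gene, was called higher (log2 fold change 1.48, SE 0.39, edgeR adjusted p = 0.038), as were leu-1 with 1.79 (SE 0.50, adjusted p = 0.048) and leu-5 with 1.39 (SE 0.24, adjusted p = 0.012).

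The catalase gene cat-4 (NCU05169), whose product breaks down hydrogen peroxide, was the least separated member in standard medium. It had 2297 and 2651 normalised counts in ve-1, against 1021 and 179 in wild type, a fold of 4.12. In iron-free medium it had 1410.1 and 244 in ve-1, against 52.2 and 85.9 in wild type. Replicate 1 was the high library both in wild-type standard and in ve-1 iron-free cultures. Its ve-1 means were 2.99-fold apart, just under the limit of 3. Of the other catalase genes, also picked afterwards, none was called higher in ve-1 in either medium. Log2 fold changes in standard and iron-free medium were 0.22 and 1.51 for cat-1 and -3.60 and 0.99 for cat-3, none of them called. For cat-2 they were -0.19 and -2.16, and cat-2 was called lower in iron-free medium (SE 0.41, edgeR adjusted p = 0.015).

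The gene col-20 (NCU00945), of the colonial class named for restricted radial growth, had replicates under 2-fold apart in every group. It stood at 215 and 319 normalised counts in ve-1 and 46.1 and 43.4 in wild type in standard medium. The iron-free values were 636 and 557 in ve-1 and 68.1 and 94.7 in wild type. Both genotypes were higher without iron, and the folds were 5.86 and 7.26. By contrast mig-11 (NCU00187) had a wide iron-free wild type, with 951 and 1623 normalised counts in ve-1 against 55.3 and 430.4 in wild type. Its standard values were 475 and 527 in ve-1 against 143 and 44.6 in wild type.

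The other 17 genes carry no symbol in the RefSeq table, which gives no product names, so they are described by locus. NCU10101 was close to silent in wild type. Raw counts there were 2 and 2 in the standard libraries and 1 and 0 in the iron-free libraries. In ve-1 the same gene had 361 and 662 normalised counts in standard medium and 1355 and 645 in iron-free medium. The ratio of summed counts, scaled by size factors, was 208 in standard medium (exact 95% interval 80.9 to 765) and 2176 in iron-free medium (390.1 to 85977). Both intervals cover counting error only and not the spread between cultures. Against 1 wild-type count the second ratio has no useful upper bound, and the rule's value of 726 depends on the 1 added to each mean.

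NCU10761 had the next largest folds, 22 and 45.2 in standard and iron-free medium. It had 173 and 293 normalised counts in ve-1 standard libraries, against 13 and 6.2 in wild type. The iron-free libraries held 471 and 412 in ve-1, against 6.81 and 10.7 in wild type. Even the closest pair of libraries differed 12.4-fold in standard medium and 35.2-fold in iron-free medium. NCU05000 came next by the smaller of its folds, with 105 and 168 in ve-1 against 20.1 and 4.96 in wild type in standard medium. Its iron-free values were 233 and 7.77 in ve-1 against 3.78 and 3.9 in wild type, so its fold of 25.1 there came from 1 library. The ratio of its summed counts, 250 in ve-1 and 9 in wild type, was 25.4 (exact 95% interval 13.2 to 56.2). That interval covers counting error only, while 238 of the 250 ve-1 counts came from replicate 1. Without ve-1 iron-free replicate 1 the gene did not meet the rule.

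NCU04106 and NCU04108 were the only members within 3 genes of another member in annotated order, separated by NCU04107. NCU04106 had 1881 and 915 normalised counts in ve-1 and 159.6 and 102 in wild type in standard medium. In iron-free medium it had 576 and 809 in ve-1 and 107 and 120.0 in wild type. NCU04108 stood at 1526 and 911 in ve-1 and 205 and 100.5 in wild type with iron. Without iron it reached 1234 and 2102 in ve-1, against 155 and 207 in wild type. The gene between them was nearly silent and did not share the difference, with a mean of 3.83 in ve-1 and 5.49 in wild type in standard medium, and 2.44 in ve-1 and 26.4 in wild type in iron-free medium. On the outer sides, NCU04105 had folds of 1.45 and 0.92 in standard and iron-free medium, and the glutathione transferase gene gst-2 had 1.89 and 0.81.

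Of 43 non-member genes directly next to a member, none was at least 4-fold higher in ve-1 in both media. Over all 9730 genes with counts, 87 were, at any level. None among 43 is near that share, so nothing is read from it. In standard medium 4 adjacent genes were at least 4-fold higher, in iron-free medium 2 were, and 2 were at least 4-fold lower in either medium. Shares of all genes were not counted for these. Of the 4, NCU03767 and NCU12154 had ve-1 means of only 9.12 and 3.04 there. NCU01032 itself had 1361 and 1761 normalised counts in ve-1 against 252 and 159 in wild type with iron, and 2186 and 1768 against 202 and 83 without it. Its neighbour NCU01033 had a fold of 12.8 in standard medium (mean 187 in ve-1, 13.7 in wild type) and of 3.03 in iron-free medium (34.4 in ve-1, 10.7 in wild type). Beside cat-4, the basic amino acid permease gene pmb had folds of 1.27 and 4.92. The trehalase gene tre-1, 2 genes from col-20, had folds of 7.64 and 32.1, but its ve-1 means of 599.8 in iron-free and 3033 in standard medium were too far apart for the rule.

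NCU03468 had 132 and 134 normalised counts in ve-1 against 29.6 and 22.3 in wild type with iron, and 158 and 132 against 18.9 and 34.2 without it. Its ve-1 libraries spanned the smallest range of any member. NCU02226 had 239 and 212 in ve-1 against 44.9 and 33.5 in wild type in standard medium, and 303 and 463 against 93.1 and 69.3 in iron-free medium. NCU02973, the member nearest to the fold limit, had 395 and 315 in ve-1 against 89.8 and 37.2 in wild type with iron, and 296 and 291 against 53.7 and 88.8 without it. The fold of NCU02973 in iron-free medium was 4.08, while the nearest genes outside were the kinase gene stk-25 (NCU03823), at 3.82 in iron-free medium, and NCU09395, at 3.54 in standard medium.

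In 4 further genes both ve-1 iron-free libraries lay below both ve-1 standard libraries. NCU07197 had 835 and 740.2 normalised counts in ve-1 against 275 and 84.3 in wild type with iron, and 228 and 357 against 39.4 and 71.2 without it. NCU02155 had 184 and 200.3 in ve-1 against 53.2 and 27.3 in wild type in standard medium, and 77.5 and 137 against 26.5 and 12.7 in iron-free medium. For NCU16311 the standard values were 144 and 124 in ve-1 against 46.1 and 12.4 in wild type, and the iron-free values 92.2 and 111 against 14.4 and 33.2. All 3 had a wild-type standard replicate 1 well above replicate 2. NCU08783 had 718 and 640.1 in ve-1 against 131 and 29.8 in wild type with iron, and 363 and 169.6 against 61.3 and 44.9 without it, with the same excess of wild-type standard replicate 1.

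In the last 4 genes at least 1 group held cultures that lay more than 2-fold apart. NCU03861 had 688 and 489 normalised counts in ve-1 against 156 and 39.7 in wild type in standard medium, and 385 and 31.1 against 11.4 and 23.4 in iron-free medium. The second ve-1 iron-free library of NCU03861 was only 1.31-fold above the higher wild-type library, the narrowest gap of the set. NCU03830 had 2471 and 2132 in ve-1 against 839 and 198 in wild type with iron, and 1441 and 662 against 230.1 and 264 without it. In NCU07046 the standard values were 401 and 125 in ve-1 against 24.8 and 21.1 in wild type, and the iron-free values 97.1 and 258 against 9.84 and 36.1. For NCU03768 they were 938 and 629.7 against 100.5 and 44.6 with iron and 526 and 1211 against 111 and 264 without it. In both genes the higher ve-1 library was replicate 1 in standard and replicate 2 in iron-free medium.

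Absence of iron in wild type is a contrast that the rule did not select on, although it capped both wild-type means. None of the 22 genes was called in it by edgeR (lowest adjusted p = 0.106), beside 1.47% of all genes called higher and 5.10% called lower. Of the 22, 20 passed the count filter on the 4 wild-type libraries alone; NCU05000 and NCU10101 were tested only because of their ve-1 counts and could hardly be called in wild type. An unadjusted p under 0.05 was reached by 4 genes. DESeq2 called 2 as lower, cat-4 (adjusted p = 0.00288) and NCU07197 (adjusted p = 0.0274). Scaling to total counts made edgeR call NCU02226 and col-20 as higher. It moved the median log2 fold change of all genes to 0.55 from 0.03. Over all genes 1290 were called with this scaling and 1231 with DESeq2, against 533 in the main fit. For cat-4 the log2 fold change was -3.16 (SE 1.01, adjusted p = 0.106), with both iron-free libraries below both standard ones. Without wild-type standard replicate 1 it was -1.40. NCU07197 had -1.74 (SE 0.58, adjusted p = 0.114), and -0.64 without that library. NCU02226 had 1.02 (SE 0.33, adjusted p = 0.108) and col-20 had 0.83 (SE 0.30, adjusted p = 0.135). The authors' deposited table of this contrast lists 1004 genes. Of the 22, it lists cat-4 and NCU03861 as lower without iron, with log2 fold changes of -2.53 and -1.98. The edgeR value for NCU03861 was -2.54, and -1.24 without wild-type standard replicate 1.

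In ve-1, both iron-free libraries lay below both standard libraries for 9 of the 22 genes and above them for 6, beside 34.7% and 34.2% of all genes tested. In wild type 6 genes were lower and 3 higher in this sense, beside 27.7% and 30.0%. The ve-1 counts are thus near the share of all genes. Among the 6 lower in wild type were NCU05000 and NCU10101, which did not pass the count filter on the wild-type libraries alone. For NCU10101 the raw counts were 1 and 0 without iron against 2 and 2 with it. Nothing is therefore read from the wild-type counts. None of the 22 genes moved without overlap in opposite directions in the 2 genotypes. The share of all genes doing so was not counted, so nothing is read from this. In ve-1 the rule itself kept changes under 3-fold, so its responses are given without a test. They ran from a log2 ratio of -1.58 for cat-4 to 1.36 for mig-11, where wild type had -3.10 and 1.36. NCU10101, NCU10761 and NCU01032 had higher ve-1 means and lower wild-type means without iron, with wild-type log2 ratios of -1.31, -0.12 and -0.52. NCU02973 and NCU07046 went the other way, with wild-type log2 ratios of 0.16 and 0.001. Apart from NCU10101, the wild-type libraries of the 2 media overlapped in each of these genes. The other 17 genes had the same sign in both genotypes. In NCU10101 the wild-type side rests on 5 raw counts.

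**Figure D3:**
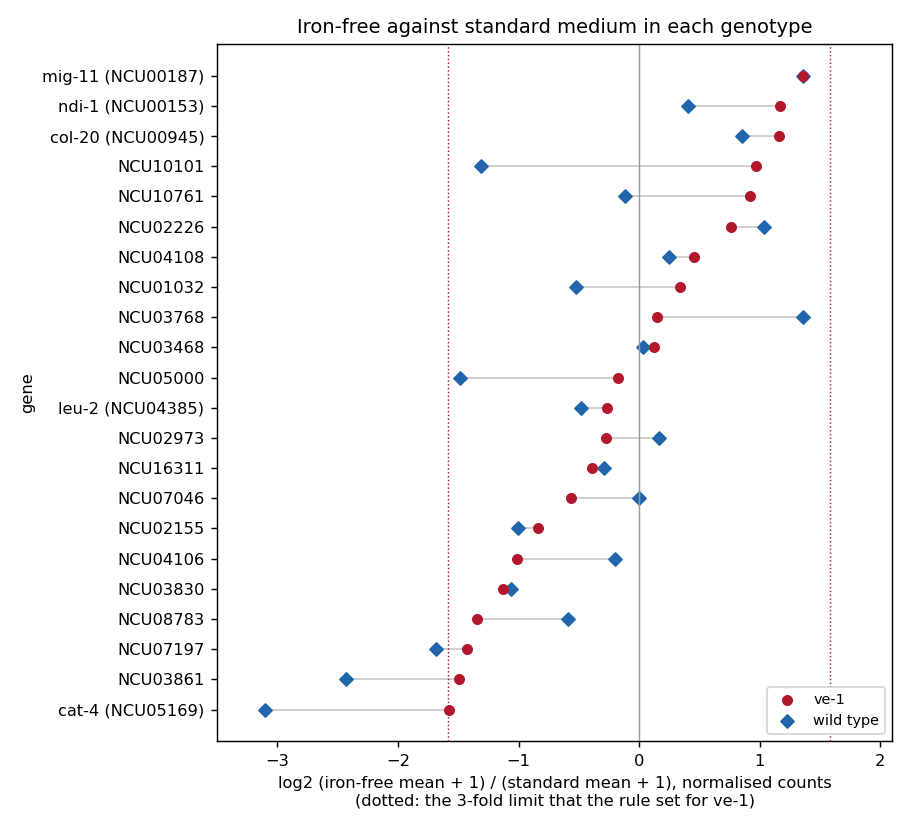
Log2 ratio of the iron-free mean to the standard mean, each plus 1 normalised count (x axis), for the 22 genes (y axis) in ve-1 (circles) and wild type (diamonds). The dotted lines are the 3-fold limit that the rule set for ve-1, and cat-4 lies at that limit in ve-1 and beyond it in wild type, at -3.10.

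A pattern that the rule did not use was the difference between the 2 wild-type standard cultures. In 21 of the 22 genes replicate 1 was higher than replicate 2, with a median log2 ratio of 1.20, and in NCU10101 they differed by -0.05. Among all genes with a mean of at least 10 in that group, 3945 were higher in replicate 1 and 3939 in replicate 2. The pattern was not particular to the 22 genes. It held for 42 of 45 genes that met the rule's fold in standard medium only and for 68 of 71 genes that met it in iron-free medium only, with medians of 0.45 and 0.97. In wild-type iron-free cultures 17 of the 22 were instead higher in replicate 2 (median log2 ratio -0.65). Both ve-1 groups were near even, with 13 of 22 higher in replicate 1 in standard medium and 11 of 22 in iron-free medium.

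Conidial markers moved with part of this. The hydrophobin gene eas (NCU08457), which coats conidia with a water-repellent layer, had 762785 and 837162 normalised counts in ve-1 standard libraries, against 439747 and 76601 in wild type. In iron-free medium it had 430164 and 20017 in ve-1, against 10518 and 8966 in wild type. The wild-type standard excess of replicate 1 was also seen in con-6 (2037 and 649.9) and con-13 (235 and 26), but not in con-8 (33879 and 47609.7) or con-10 (2222 and 3418). Summed over these 5 markers, the level was 865194 and 976899 in ve-1 standard libraries, against 478121 and 128305 in wild type. The iron-free sums were 443051 and 24965 in ve-1, against 23916 and 55050.3 in wild type. Without eas, the standard sums were 102410 and 139737 in ve-1, against 38374 and 51704 in wild type. Replicate 1 of wild type was then the lower, so its excess in the 5-marker sum came from eas.

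In standard medium each ve-1 library exceeded both of wild type for all 5 conidial markers, beside 36.3% of all genes tested. In iron-free medium this held for 2 of 5, eas and con-6, beside 30.0% of all genes. Of the 5, edgeR called only con-6 as higher in standard medium and none in iron-free medium. These markers are part of a wider conidiation list of 21 genes. In that list 2 genes were called higher and 5 lower in standard medium, beside 12.5% and 15.3% of all genes. The gene con-13 was at 0 in replicate 2 of both iron-free groups. The sum without eas was 12888 and 4948 in ve-1 iron-free libraries, against 13398 and 46084 in wild type, and con-8 made up most of it (11506 and 4412 in ve-1, against 13158 and 45381 in wild type). What part conidial transcripts have in the levels of the 22 genes was not tested. Of the sexual markers, fmf-1 had at most 1.3 normalised counts in any library, and asd-1 was lower in ve-1 (138 and 100.2 against 820.4 and 2069 in standard medium, and 177 and 216 against 3827 and 2961 in iron-free medium). The level of poi-2 was 5264 and 589 in ve-1 against 27.2 and 28.5 in wild type in standard medium, but 28.4 and 1.29 against 148 and 9.76 in iron-free medium. For asd-3 it was 64.9 and 40.3 in ve-1 against 27.2 and 26 in wild type with iron, and 7.84 and 0.647 against 17.4 and 3.9 without it.

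Within ve-1 iron-free cultures, 6 of the 22 genes were at least 2-fold higher in replicate 1, the library rich in eas and con-13, beside 8.06% of all genes with a mean of at least 10 there. They were NCU05000, NCU03861, cat-4, NCU03830, NCU08783 and NCU10101, with log2 ratios of 4.74, 3.59, 2.53, 1.12, 1.09 and 1.07. Another 3 were at least 2-fold higher in replicate 2 (4.06% of all such genes), namely leu-2, NCU07046 and NCU03768, with -2.36, -1.40 and -1.20. The other 13 genes, among them NCU01032, NCU10761, col-20 and NCU03468, lay within 2-fold. The 22 genes, which the rule chose by their group means, therefore differed in how they varied between the ve-1 iron-free cultures.

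**Figure D4:**
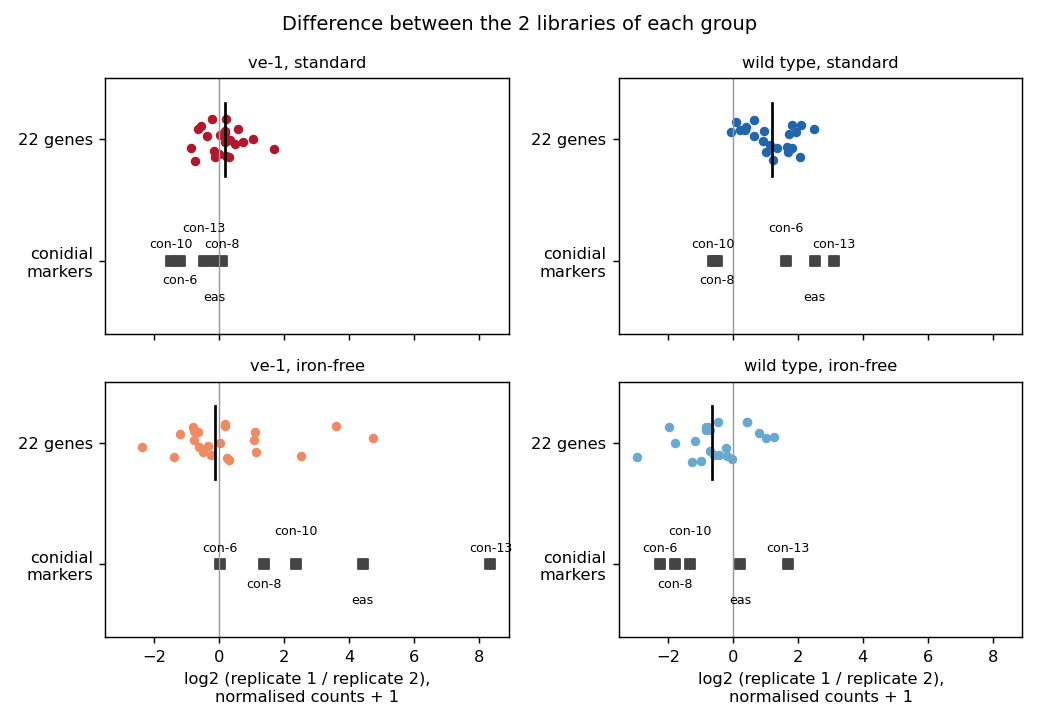
Log2 ratio of replicate 1 to replicate 2 (x axis) in each of the 4 groups, for the 22 genes (coloured points, with the median as a black bar) and for 5 conidial markers (grey squares). All but NCU10101 of the 22 genes lie right of 0 in wild-type standard cultures, with a median of 1.20, and spread from -2.36 to 4.74 in ve-1 iron-free cultures, where eas and con-13 are far to the right.

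Membership leaned on single cultures to different degrees. With each of the 8 libraries left out in turn and size factors recomputed, 7 genes met the rule every time. These were col-20, NCU01032, NCU03468, NCU04106, NCU04108, NCU10101 and NCU10761. Without wild-type standard replicate 1 there were 43 genes, the 22 among them. Without wild-type standard replicate 2 there were 12. The genes least often retained were mig-11 and cat-4, each kept in 4 of the 8 cases.

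None of the 22 genes belongs to the lists of velvet complex, conidiation, sexual development, mating-type or sulfur genes that were set beside them. The left-out gene NCU00646, entered in the velvet complex list as lae-1, had 496 and 558 normalised counts in ve-1 against 168 and 70.7 in wild type with iron, and 709 and 215 against 56.8 and 48.8 without it. Of the 4 genes in this list, which is not limited to velvet proteins, NCU00646 was called higher in both media. The other 3 genes, ve-1 itself among them, were called lower in standard medium, beside 15.3% of all genes. There NCU02775 and NCU05964 had log2 fold changes of -1.76 and -7.96. In iron-free medium 2 genes of the list were called lower, beside 10.1%. For this and the next 2 lists, the shares of all genes called higher and lower were 12.5% and 15.3% in standard medium. In iron-free medium they were 8.36% and 10.1%. Of 13 sulfur genes, 7 rose in ve-1 in standard medium and 3 in iron-free medium, and none fell. The median log2 fold changes of the sulfur genes were 1.10 and 0.77, against -0.03 and 0.04 over all genes. The conidiation list takes in every gene with a ccg symbol. Of its 21 genes, 2 rose and 5 fell in standard medium and 1 rose and 2 fell in iron-free medium, with medians of 0.04 and 0.12. In standard medium con-6 and rca-1 rose in ve-1, by log2 fold changes of 4.50 and 1.66. Those that fell there were ada-1, ccg-9, ccg-13, ccg-14 and ccg-16, with log2 fold changes of -2.13, -1.92, -3.27, -3.73 and -3.70. Of 12 sexual development genes tested, 1 rose and 4 fell in ve-1 in standard medium, and 2 fell in iron-free medium. Of the mating-type genes, matA-1 was the 1 tested, and it was not called. In the wild-type iron contrast 6 of the 21 genes in the conidiation list were called lower, beside 5.10% of all genes. They were rca-1, ccg-8, ccg-9, ccg-13, ccg-14 and ccg-15. None of the conidial markers eas, con-6, con-8, con-10 and con-13 was called. No gene of the other 4 lists was called in this contrast.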

How the data were processed

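Poly(A) RNA of 8 cultures in 4 groups of 2 was sequenced. FastQC, Trim Galore, STAR and DESeq2 are named in the submitters' processing notes. Neither the strand setting of the counting nor the genome build is stated: both are not given in the sources used. The deposited files hold raw counts per gene for each library. The authors' deposited comparison tables hold a mean normalised signal, a log2 fold change and adjusted p-values, and list only genes with adjusted p under 0.05.

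Genes were chosen from counts divided by median-of-ratios size factors (Python 3.11.15). Contrasts were fitted with edgeR 4.0.16 in R 4.3.3, with TMM scaling, filterByExpr (minimum count 10, total 15), the robust quasi-likelihood test on all 8 libraries (4 residual degrees of freedom) and Benjamini-Hochberg adjustment over 8118 genes, called at adjusted p under 0.05. DESeq2 1.42.0 was an alternative. The edgeR step was also run on simulated counts, in which genes of like level shared a common spread between replicates. Nothing on the calls made here is read from that run. The members and lists were chosen with earlier results of these data known, and the leucine, catalase and NADH dehydrogenase sets after the members were seen.

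Values in every library were to be given for members with a symbol, with the highest ve-1 levels, the largest folds, neighbouring members, the largest replicate differences and those at the fold limit; the other members were added after their values were seen. List genes are given by counts with a few examples. Symbols and gene order came from the RefSeq table of assembly NC12, which matched 9729 of 9730 identifiers; its coordinates served only to order genes and to find overlapping ones, no lengths or sequences were used, and sequence features were not analysed here. File names give same-numbered replicates of a genotype the same strain number in both media, so by the file names the numbers pair cultures within a genotype. The matA-1 levels go against this for ve-1 replicate 2, so the pairing in ve-1 is uncertain; the replicate differences correlated at 0.056 in wild type and -0.0024 in ve-1 over 8118 genes. Across genotypes the samples share only a number.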

Additional observations from a re-analysis of the deposited data

How the results depend on the processing

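The number of genes meeting the rule was 43 with a fold of at least 3, 3 with a fold of at least 8, 13 with ve-1 means under 2-fold apart and 48 with no limit between them; with 1 library left out it ran from 12 (without wild-type standard replicate 2) up to 43, reached without wild-type standard replicate 1. For iron absence in wild type, none of the 22 genes was called by edgeR, 2 were with scaling to total counts, 2 with DESeq2, and 0 to 1 with 1 library left out (NCU07197, without wild-type standard replicate 2). For loss of ve-1 with iron present, 17 became 4 to 18 with 1 library left out, with 9 without wild-type standard replicate 2, 4 without ve-1 standard replicate 1 and 11 without ve-1 standard replicate 2. In iron-free medium 15 became 9 to 17, with 9 without wild-type iron-free replicate 1. DESeq2 called 22 in each of these contrasts. Over all genes it called 2759 in standard and 2032 in iron-free medium, where edgeR called 2258 and 1500. The number of all genes called by edgeR also fell whenever a library of the 2 groups compared was left out. The lower counts are therefore not particular to the 22 genes. Leaving out wild-type standard replicate 1 moved the wild-type iron log2 fold change of cat-4 to -1.40, NCU07197 to -0.64 and NCU03861 to -1.24; over all 8 libraries left out in turn they ran from -3.92 to -1.40, -2.36 to -0.64 and -3.22 to -1.24. The cause of these changes was not tested, beyond the fewer libraries.

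With the replicate block within genotype, which is uncertain for ve-1 because of matA-1, the calls were 0 for iron in wild type, 13 for ve-1 in standard medium and 11 in iron-free medium; with 1 block across genotypes, an alternative chosen after seeing the data, they were 0, 15 and 13. No result changed sign under any alternative run. Precision is limited by 2 libraries per group; the wild-type levels of NCU10101 and the iron-free wild-type level of NCU05000 are also limited by depth.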
